A study of Mus musculus with 4 samples.

Results

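High mitochondrial RNA barcodes were the barcodes of the MMPhigh libraries that held at least 500 unique molecular identifiers (UMIs, each standing for 1 captured RNA molecule) and took at least 25% of them from the 13 protein genes of the mitochondrial genome, whose symbols start with mt-. They numbered 981 of the 18227 MMPhigh barcodes and of the 101870 barcodes in the series. MMPhigh 1 held 454 of them among 13939 barcodes, and MMPhigh 2 held 527 among 4288. They were chosen by their mitochondrial share, so that share is given only as a description. All other genes were scaled to the UMIs left after the mt- genes were taken out, and the level of a gene is given as counts per 1000000 of these (CPM).

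Mitochondrial messengers are made and kept inside the organelle, behind a double membrane, while most nuclear messengers are free in the cytoplasm and a few long non-coding RNAs stay in the nucleus. The 13 mitochondrial messengers encode subunits of the respiratory chain and of ATP synthase, and the remaining subunits come from nuclear genes. In single-cell sequencing a barcode marks a droplet, and a high mitochondrial share is widely used as a filter, because it is known both from cells that have lost cytoplasm and from cells rich in mitochondria.

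The study sorted CD31-positive cells of the aorta-gonad-mesonephros region (AGM) of C57BL/6J mouse embryos at embryonic day 11.5, a region where haematopoietic stem cells emerge from endothelium. CD31 is the adhesion protein encoded by Pecam1 and marks endothelium and early blood cells. Cells were separated by TMRM, a dye that accumulates in mitochondria with their membrane potential, into MMPlow and MMPhigh gates, with 2 libraries in each. The labels name no embryos or sorts behind the replicate numbers. The tests can therefore cover no more than the spread between these libraries, which may be technical.

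The libraries differed in depth and in how many barcodes they held. MMPhigh 1 had a median of 1362 UMIs per barcode and MMPhigh 2 a median of 19707.5. The members were shallow in both. Their median total was 1022.5 UMIs in MMPhigh 1, against 1377 in its other barcodes. In MMPhigh 2 it was 1524 UMIs, against 22409 in the others. After removal of the mt- genes the members kept medians of 469 and 596 UMIs, and a median of 346.5 and 448 genes was detected. Barcode sequences were rarely shared: 1 member sequence of each MMPhigh library recurred in the other, and in neither case did it meet a member there. With MMPlow 1 and MMPlow 2, 5 and 3 members of MMPhigh 1 and 12 and 5 members of MMPhigh 2 shared a sequence.

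Members made up 3.26% of the barcodes of MMPhigh 1 (95% exact Clopper-Pearson interval 2.97 to 3.57) and 12.3% of those of MMPhigh 2 (11.3 to 13.3). MMPlow 1 held 0 such barcodes among 59928, for which 3 counts, the limit used here for a count of 0, would be a share of 0.00501% (the exact interval ends at 0.00616%). The deposited barcodes of MMPlow 1 start at 962 UMIs, against 500 in the other libraries, so shallower barcodes were not analysed there. MMPlow 2 held 14 among 23715, or 0.0590% (0.0323 to 0.0990). These intervals cover counting error only. The mean difference between the gates was 7.74 percentage points, given without a test because this share chose the members. It was 12.3 points without MMPhigh 1 and 3.23 points without MMPhigh 2. Depth moved with the share: among barcodes of 1000 to 2000 UMIs the members were 3.63% in MMPhigh 1 and 68.9% in MMPhigh 2, where only 354 barcodes lay in that range. In MMPlow they were 0 of 39077 and 8 of 3826 (0.209%) there, a difference of 36.2 points between the gates. Among barcodes of at least 1000 UMIs the shares were 2.45% and 10.4% in MMPhigh and 0% and 0.0470% in MMPlow, a difference of 6.39 points.

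**Figure D1:**
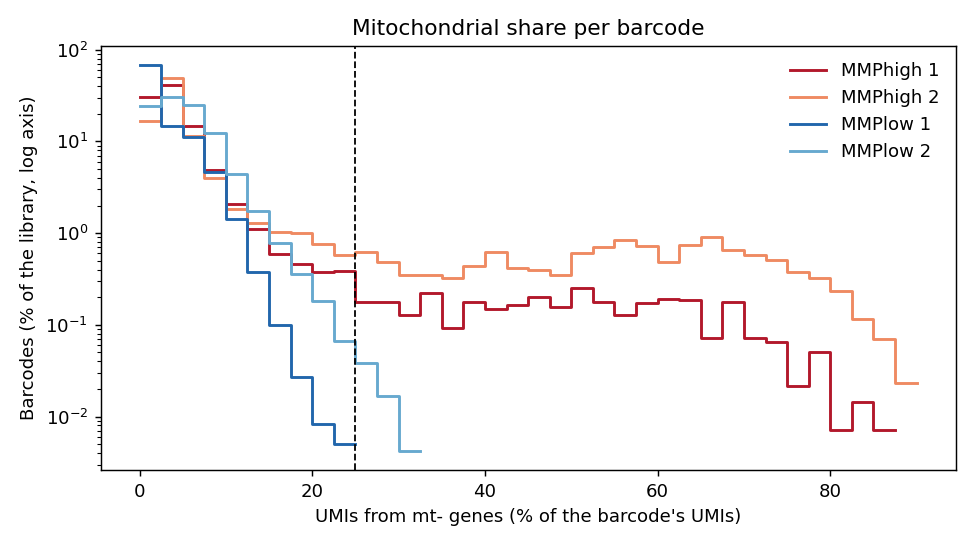
Distribution of the mitochondrial share of UMIs per barcode (x axis, %) in the 4 libraries, as the percentage of a library's barcodes in bins of 2.5 points (y axis, log scale). The dashed line is the threshold of 25%. The MMPhigh libraries extend to 87.4% and 88.5%, while MMPlow 1 ends at 24.7% and MMPlow 2 at 30.7%.

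The members did not form a narrow class. Their median mitochondrial share was 49.6% in MMPhigh 1 and 56.3% in MMPhigh 2, and 121 and 216 of them stood at 60% or more. No gap separated them from the rest at the threshold: the lowest members held 25.03% and 25.01%, and the highest barcodes outside held 24.91% and 24.98%. They carried 1.13% and 0.895% of all UMIs of their libraries but 12.4% and 10.9% of the mitochondrial UMIs.

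The make-up of the mitochondrial RNA was set beside that of the comparison barcodes, those under 25% matched on total UMIs within the library. The ATP synthase gene mt-Atp6 took 21.7% and 21.5% of the mitochondrial UMIs in members of MMPhigh 1 and MMPhigh 2, against 22.4% and 21.8% in the comparison barcodes. The cytochrome c oxidase genes mt-Co3 and mt-Co2 followed in members with 20.2% and 16.1% in MMPhigh 1 and 19.3% and 15.4% in MMPhigh 2. The largest gap to these barcodes among the 13 genes was that of the complex I gene mt-Nd1, at 6.44% against 5.41% in MMPhigh 1 and 6.57% against 5.57% in MMPhigh 2. Against all other barcodes of MMPhigh 2, which are deeper, mt-Co1 had the widest gap (10.9% against 13.8%). There mt-Nd1 was slightly lower in members, at 6.57% against 6.74%, while in MMPhigh 1 it stood at 6.44% against 5.99%. These genes set the rule, so no test was made of them.

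For the comparison, members and barcodes under 25% were drawn from the same library in equal numbers per bin of total UMIs. All 454 members of MMPhigh 1 entered. In MMPhigh 2, 328 of the 527 members found a partner, because few barcodes under 25% were as shallow. The summed non-mitochondrial counts were 311962 against 563293 UMIs in MMPhigh 1 and 365417 against 636858 in MMPhigh 2. With edgeR's quasi-likelihood test and the library as a block, 273 of 8777 genes (3.11%) passed a Benjamini-Hochberg adjusted p of 0.05, 130 higher (1.48%) and 143 lower (1.63%) in members, and all 273 had the same sign in both libraries. DESeq2 called 21 genes (0.239%), 19 of them among the 273, and gave an adjusted p for only 950 genes. Only 1 residual degree of freedom stood behind the spread, so gene calls rest on 2 pairs of sums. Both tools also draw on other genes for the spread of a gene. Their p-values therefore do not measure the spread between libraries alone.

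The most abundant nuclear-encoded transcript of the members, Gm42418, came from a ribosomal RNA locus, and it ranked first in the comparison barcodes of both libraries too. Gm42418 and AY036118 are annotated as long non-coding RNAs on the GRCm38 (mm10) assembly at chromosome 17, 39846958 to 39848788 and 39847113 to 39848035, inside the span of a gene annotated as ribosomal RNA (39846353 to 39848827). That gene is not in the feature list, and 1735 and 893 runs of 31 bases in Gm42418 and AY036118 also occur in it, on either strand. They overlap each other on opposite strands, so their reads are uncertain between them. The non-coding RNA Gm26917 lies next to them at 39843013 to 39846341.

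Gm42418 stood at 57876 CPM in the members of MMPhigh 1 and 18303 CPM in the matched barcodes. In MMPhigh 2 it stood at 36430 and 17016 CPM. It was thus higher in the members of both libraries, by 1.37 ± 0.48 (SE) on the log2 scale, but missed the threshold in edgeR (adjusted p = 0.0923). DESeq2 called it (adjusted p = 2.64e-06, log2 fold 1.35), and it passed under 8 of 18 alternatives in all, among them a threshold of 20%, the MMPhigh libraries alone and no TMM scaling. Gm26917 passed with edgeR: 2099.6 and 1800.7 CPM in members against 184.6 and 265.4 CPM, a log2 fold of 3.12 ± 0.34 (adjusted p = 3.84e-17). AY036118 stood at 3484 and 1270 CPM against 1466 and 923 CPM and did not pass (log2 fold 0.85, edgeR adjusted p = 0.193). Gm42418 and AY036118 were named after their values were seen.

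The gene of largest rise among those with at least 100 UMIs was Taco1, which encodes an activator of the translation of cytochrome c oxidase subunit I inside mitochondria. Taco1 held 247 and 165 UMIs in members against 15 and 63 in matched barcodes, or 791.8 and 451.5 CPM against 26.6 and 98.9 CPM. Its log2 fold of 3.29 ± 0.34 was the largest of the 10 (edgeR adjusted p = 1.02e-18). Its log2 ratio was 4.45 in MMPhigh 1 and 2.08 in MMPhigh 2, and DESeq2 gave 3.485 ± 1.06 (adjusted p = 0.0489). With only members of at least 40% the fold was 3.70 but did not pass (edgeR adjusted p = 0.180). Lars2, the leucyl-tRNA synthetase of mitochondria, stood at 3016 and 1798 CPM against 449.1 and 478.9 CPM, with a log2 fold of 2.32 ± 0.33 (edgeR adjusted p = 1.67e-09).

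Among the other genes of largest rise, Cmss1, a gene linked to ribosomal RNA processing, stood at 5113 and 3968 CPM in members against 861.0 and 1163.5 CPM. Camk1d, a calcium and calmodulin dependent kinase, stood at 2609 and 1385 CPM against 601.8 and 369.0 CPM. The log2 folds were 2.16 for Cmss1 and 2.01 for Camk1d (edgeR adjusted p = 5.29e-07 and 2.82e-07). P2ry14, a receptor for UDP-glucose, and Il31ra, a subunit of the interleukin 31 receptor, had folds of 2.16 and 2.02, and the remaining genes were Gm15261 (2.92), Gm47283 (2.45) and Gm15564 (2.33). Taco1, Gm15261, Gm15564, P2ry14 and Cmss1, like Runx1, each overlap a gene on the other strand, so their counts are uncertain where reads fell in the overlap. The same holds for Lrrc4c, Cacna2d3, Jun, Kcnq1ot1 and Xist, described further on, and Tmeff2 overlaps 2 genes on its own strand. None of the 130 higher genes shared a run of 31 exonic bases with the 37 mitochondrial transcripts, and introns were not compared.

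**Figure D2:**
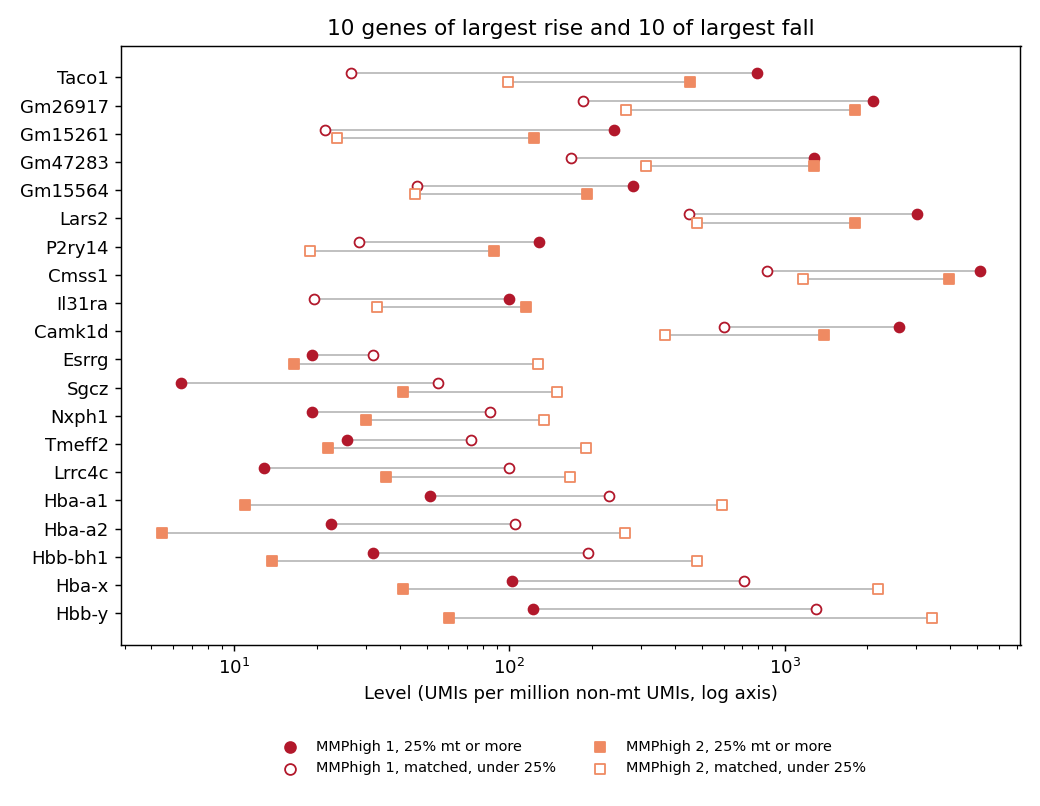
Levels (x axis, CPM of non-mitochondrial UMIs, log scale) of the 10 genes of largest rise and the 10 of largest fall, with 1 line per library. Filled symbols are members and open symbols the matched barcodes under 25%. The genes were chosen to have the same sign in both libraries, and the values for Taco1 run from 26.6 to 791.8 CPM.

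Counted per barcode, RNA of the ribosomal RNA locus was more frequent in members than in barcodes under 5%, but not than in every bin under the threshold. Barcodes under 8000 total UMIs were binned by mitochondrial share for this description, a limit set after the data had been seen. In MMPhigh 1 the 3 genes gave a mean of 25.7 UMIs per barcode at a share under 5%, 24.5 at 5 to 10%, 29.1 at 10 to 15%, 37.8 at 15 to 25%, and 45.9, 41.9 and 43.8 in members of 25 to 40%, 40 to 60% and at least 60%. In MMPhigh 2 the corresponding means were 26.4, 40.6, 37.6, 52.4, 57.3, 44.5 and 35.9 UMIs, so members of at least 60% lay below 3 of the 4 bins under the threshold. The bins of MMPhigh 2 between 5 and 25% were also deeper, with medians of 3522 to 4478 total UMIs against 1412 in its lowest bin. The 10 genes of largest rise, which include Gm26917 and were chosen for being higher in members, gave 3.12 UMIs per barcode in the lowest bin of MMPhigh 1, 9.35 at 15 to 25% and 11.3 in the highest. In MMPhigh 2 they gave 4.39 in the lowest bin, 15.1 at 15 to 25%, 16.2 at 25 to 40% and 10.3 in the highest.

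Messengers of cytosolic ribosomal proteins went the other way per barcode. Their mean was 350.0 UMIs in the lowest bin of MMPhigh 1 and 76.5 in the highest, and 450.2 and 77.6 UMIs in MMPhigh 2. As a part of the nuclear-encoded RNA, 0 of the 80 tested genes of this list passed in edgeR, beside 3.11% of all tested genes. In edgeR 1 had an unadjusted p under 0.05, and 0 passed in DESeq2. Their median log2 fold was 0.01 beside -0.04 over all genes. With members from 20% upward 8 of 80 passed downward (median -0.40), beside 536 of 7660 over all tested genes. The median was -0.25 with members of 40% or more left out and 0.26 with only those members. The mean number of mitochondrial UMIs was 46.0 and 75.4 per barcode in the lowest bins and 804.0 and 1020.2 in the highest. The bins are set by the mitochondrial share, so the direction of these means is a description of the rule.

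**Figure D3:**
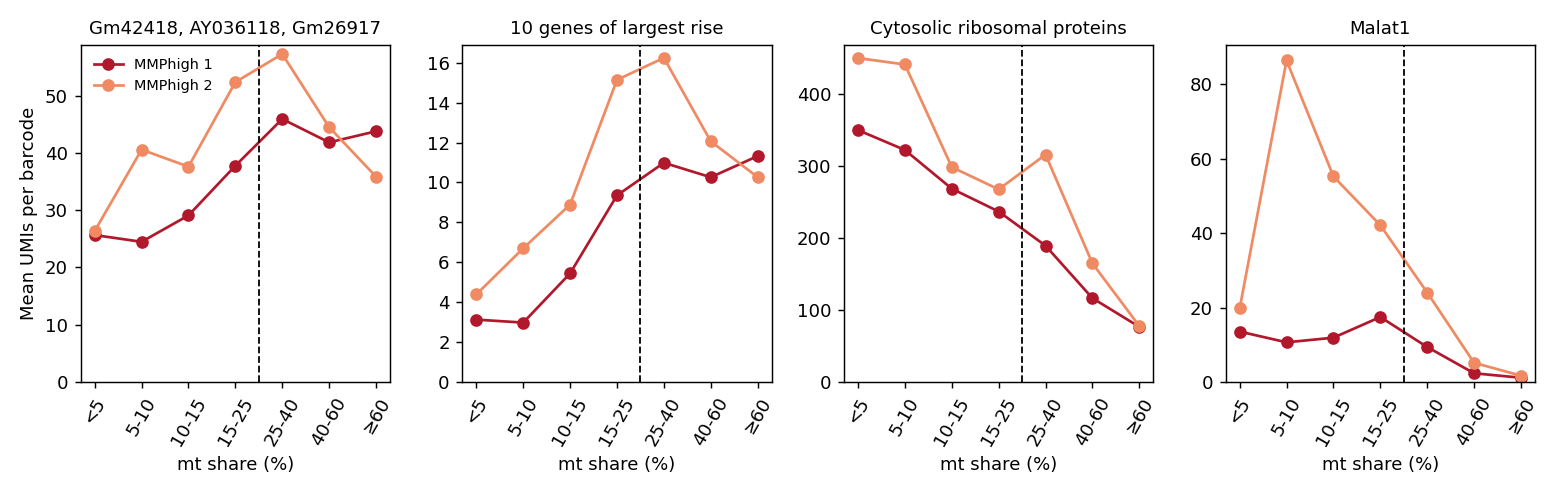
Mean UMIs per barcode (y axes, linear from 0) by mitochondrial share (x axis, %, 7 bins) for barcodes under 8000 UMIs of MMPhigh 1 and MMPhigh 2. The dashed line is the 25% threshold. Ribosomal protein messengers go from 350.0 to 76.5 in MMPhigh 1, while the 3 genes at the ribosomal RNA locus go from 25.7 to 43.8.

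Several genes of blood progenitors and megakaryocytes were higher in members. In the haematopoietic progenitor list, 3 of 10 tested markers passed upward and 0 downward, beside 1.48% of all tested genes upward, with a median log2 fold of 0.78. Runx1, the transcription factor needed for blood formation from endothelium, stood at 512.9 and 561.0 CPM in members against 218.4 and 246.5 CPM (log2 fold 1.20 ± 0.28, edgeR adjusted p = 0.00205). The adhesion receptor gene Adgrg1 and the growth factor gene Angpt1 also passed, with log2 folds of 1.29 and 1.11. Ptprc, which encodes the pan-leukocyte protein CD45, stood at 99.4 and 120.4 CPM in members against 99.4 and 76.9 CPM, a difference that did not pass (log2 fold 0.33, edgeR adjusted p = 0.804).

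In the megakaryocyte list 2 of 7 passed upward and 0 downward, beside the same 1.48% of all tested genes upward. Ppbp, a platelet chemokine gene, had a log2 fold of -1.99 and did not pass (edgeR adjusted p = 0.0588), and under 5 alternatives, another seed among them, 1 marker of the list passed downward. Itga2b, the integrin chain CD41 of megakaryocytes and of early blood progenitors, held 39 and 60 UMIs in members against 23 and 24, or 125.0 and 164.2 CPM against 40.8 and 37.7 CPM (log2 fold 1.87 ± 0.34, edgeR adjusted p = 1.48e-05). Its partner Itgb3 had a log2 fold of 1.53. DESeq2 gave 0 calls in either list at medians of 0.80 and 0.74, and it gave no adjusted p for 23 of the 36 called genes named here. Without the library block edgeR gave 0 calls in the progenitor list (median 0.76) and 2 in the megakaryocyte list (median 0.75). Other settings moved the progenitor median further: it was 0.13 with only members of at least 40% (0 of 8 called), 0.11 with no matching (4 higher and 1 lower of 12) and -0.20 after thinning to 200 UMIs (0 of 2). The megakaryocyte median was -0.24 with only members of at least 40% (0 of 2) and 1.10 with no matching (5 higher of 10). After thinning no megakaryocyte marker could be tested. Of all tested genes, 38 passed upward and 28 downward of 4975 with only members of at least 40%. With no matching 266 and 585 of 18862 did, after thinning 18 and 9 of 2450, and without the library block 56 and 74 of 8777.

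These genes were not spread evenly over the members. Runx1 stood at 1148 and 789.6 CPM in barcodes of 15 to 25%, just below the threshold, and at 824.7 and 725.2 CPM in members of 25 to 40%. In members of 40 to 60% it stood at 178.1 and 237.3 CPM, and under 5% at 148.0 and 311.5 CPM. Itga2b peaked in the same 2 bins, with 212.4 and 233.4 CPM at 25 to 40% against 18.7 and 41.5 CPM at 40 to 60%. In members of at least 60% Runx1 stood at 199.1 and 263.7 CPM and Itga2b at 66.4 and 87.9 CPM, so both genes were lower above 40% than at 25 to 40% in both libraries.

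Fits were also made by range. With members of 40% or more left out, Runx1 (log2 fold 1.31), Adgrg1 (1.55), P2ry14 (2.80) and Itga2b (2.12) passed, with edgeR adjusted p-values of 0.0183, 0.0238, 0.0234 and 0.00588. Itgb3 did not (1.00, edgeR adjusted p = 0.246), which left 1 call in the megakaryocyte list, beside 76 of 6880 upward over all tested genes. With only members of at least 40%, Runx1 (0.71, adjusted p = 0.320), Adgrg1 (0.17, adjusted p = 0.963) and Itga2b (0.36, adjusted p = 0.899) did not pass in edgeR, and P2ry14 had too few counts for the test. The difference between the 2 ranges was not tested itself. Gm26917, Lars2, Cmss1, Camk1d and Gm47283 passed in both ranges, and of the 2 ranges Gm42418 passed with members of at least 40% (log2 fold 1.85, edgeR adjusted p = 0.00142).

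A few genes of mitosis were higher. Mki67, the proliferation marker, stood at 436.0 and 645.8 CPM in members against 140.2 and 227.7 CPM (log2 fold 1.56 ± 0.29, edgeR adjusted p = 2.04e-05), and DESeq2 called it too (adjusted p = 0.0150). It passed in both ranges, with log2 folds of 1.66 below and 1.40 above 40%. Its log2 fold was 0.71 with no matching, still past the threshold, and after thinning to 200 UMIs it did not pass (1.09, edgeR adjusted p = 0.140). Just below the threshold, at 15 to 25%, Mki67 already stood at 412 and 546 CPM. Members of 25 to 40%, 40 to 60% and at least 60% held 487 and 696, 375 and 569, and 398 and 461 CPM. The kinetochore genes Cenpe and Cenpf, with log2 folds of 1.16 and 0.89, completed the calls of the G2 and M phase list. There 3 of 16 tested genes passed upward and 0 downward, beside 1.48% of all tested genes upward. The list's median was 0.18, with -0.03 in MMPhigh 1 and 0.26 in MMPhigh 2, and 8 of 16 genes were higher in both libraries. After thinning 0 of 12 passed, and only 1 of the 16 passed with DESeq2, without the library block, or after matching on non-mitochondrial UMIs. Of all tested genes, 18 of 2450, 13 of 8777, 56 of 8777 and 61 of 7988 passed upward in these settings, in that order. Of the S phase list 1 of 15 passed, beside the same 1.48% of all tested genes upward. It was Clspn (1.07), a gene of the replication checkpoint whose call was lost under 13 of 18 alternatives.

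**Figure D4:**
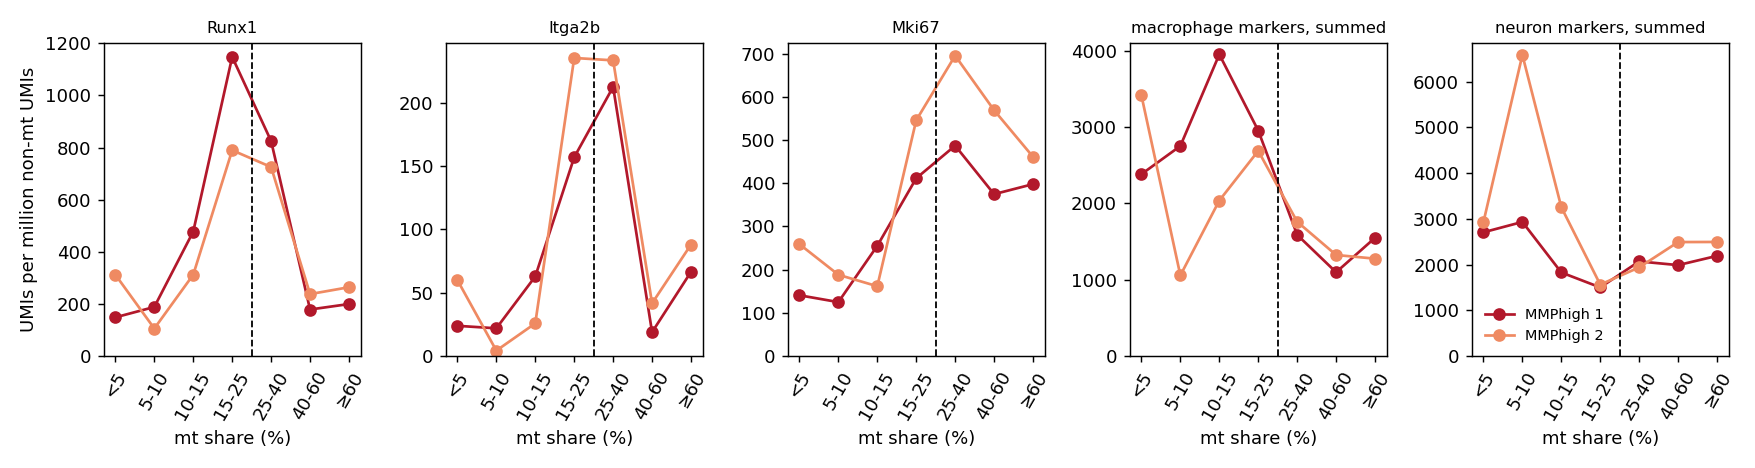
Levels (y axes, CPM of non-mitochondrial UMIs, linear from 0) by mitochondrial share (x axis, %, 7 bins) in barcodes under 8000 UMIs of MMPhigh 1 and MMPhigh 2, with the 25% threshold dashed. Runx1 and Itga2b are highest at 15 to 40%, with Runx1 at 824.7 and 725.2 CPM in members of 25 to 40% and 178.1 and 237.3 CPM at 40 to 60%.

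Globin messengers, the products of red blood cells, were the genes of largest fall. All 7 tested globin genes passed downward, beside 1.63% of all tested genes. The embryonic beta-type globin Hbb-y held 38 and 22 UMIs in members and 734 and 2186 UMIs in matched barcodes, or 121.8 and 60.2 CPM against 1303 and 3432 CPM (log2 fold -4.58 ± 0.39, edgeR adjusted p = 2.74e-27). The log2 ratio of Hbb-y was -3.32 in MMPhigh 1 and -5.62 in MMPhigh 2, and DESeq2 gave -4.65 ± 0.99 (adjusted p = 0.000295). The embryonic alpha-type globin Hba-x stood at 102.6 and 41.0 CPM against 711.9 and 2183 CPM (log2 fold -4.18). Most globin UMIs of the matched barcodes lay in a few globin-rich barcodes. In MMPhigh 1, 3 of 454 matched barcodes and 1 of 454 members took 10% or more of their non-mitochondrial UMIs from globin genes, and in MMPhigh 2 13 of 328 and 0 of 527 members did. The 13 held 97.8% of the globin UMIs of the matched barcodes of MMPhigh 2, and the 3 held 83.3% in MMPhigh 1.

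Without such barcodes in either class, 0 of the 7 genes passed, and Hbb-y and Hba-x had log2 folds of 0.01 and 0.22. Hba-a1, Hba-a2 and Hbb-bh1 stayed below 0 under every setting, at -1.29, -0.51 and -0.15 at the highest. Summed globin then stood at 276.1 CPM in members and 457.8 CPM in matched barcodes of MMPhigh 1, and at 158.7 and 158.3 CPM in MMPhigh 2. The barcodes left out were chosen by their globin share after the data had been seen, so leaving them out lowers a globin difference by that choice. Other settings removed calls too. Hbb-y did not pass with comparison barcodes under 10% or after thinning to 200 UMIs. Hba-x did not pass under either of these or with only members of at least 40%. The remaining markers of red cells gave no call: 2 of the 9 erythroid markers in the files could be tested, and 0 passed. That is too few to set beside the 3.11% of all tested genes that passed.

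Several neuronal markers were lower in members than in matched barcodes. In the neuron list 5 of 12 tested markers passed downward and 0 upward, beside 1.63% of all tested genes downward, with a median log2 fold of -0.98. The neuronal kinase gene Mapk10 held 11 and 24 UMIs against 66 and 144, or 35.3 and 65.7 CPM against 117.2 and 226.1 CPM (log2 fold -1.75 ± 0.34, edgeR adjusted p = 6.19e-05). Cacna2d3, a calcium channel subunit gene, fell by 1.59 on the log2 scale, and Dcx, Elavl4 and Map2, genes of young neurons, by 1.45, 1.14 and 1.08. Tubb3, the neuronal beta-tubulin, stood at 317.3 and 500.8 CPM against 566.3 and 716.0 CPM and did not pass (log2 fold -0.67, edgeR adjusted p = 0.245). The synaptic genes Lrrc4c and Nxph1 and the transmembrane gene Tmeff2 were among the 10 genes of largest fall, with log2 folds of -2.44, -2.13 and -2.41. Members still held neuronal RNA, at a summed 2058 and 2334 CPM over the list against 2817 and 4387 CPM. With members of 40% or more left out 1 of the 12 passed, and with DESeq2 0 did, at medians of -0.89 and -0.98. With only members of at least 40%, 1 of 11 passed and the median was -0.33. Without the library block 3 of 12 passed (median -1.01), and after thinning to 200 UMIs 0 of 11 did (-0.60). Of all tested genes, 56 of 6880 passed downward with members of 40% or more left out and 8 of 8777 with DESeq2. With only members of at least 40% 28 of 4975 did, without the block 74 of 8777, and after thinning 9 of 2450. By mitochondrial share the list was lowest just below the threshold, at 1499 and 1560 CPM at 15 to 25%. Every bin of members lay above that, with 2068 and 1938 CPM at 25 to 40%.

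Macrophage markers fell in part. The complement genes C1qb and C1qc and the Fc receptor gene Fcgr3 passed downward, 3 of 12 beside 1.63% of all tested genes, and the list's median log2 fold was -0.78. C1qb stood at 237.2 and 180.6 CPM in members against 591.2 and 307.8 CPM (log2 fold -1.06 ± 0.29, edgeR adjusted p = 0.0128). All 12 markers were detected in both classes. When barcodes were matched on non-mitochondrial UMIs, 0 of the 11 tested markers passed downward and Adgre1, the F4/80 antigen gene, passed upward (log2 fold 1.58, edgeR adjusted p = 0.0256), while the median stayed below 0 at -0.56. Without the library block and with DESeq2 0 of 12 passed, at medians of -0.90 and -0.81. With members from 20% upward 2 passed upward and 1 downward, at a median of -0.28. Of all tested genes, 527 passed upward and 536 downward of 7660 there. After matching on non-mitochondrial UMIs 61 and 60 of 7988 did.

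Endothelial RNA was scarce in members and in matched barcodes alike, although CD31 had been a sorting marker. Pecam1 held 19 and 10 UMIs in members against 7 and 12, or 60.9 and 27.4 CPM against 12.4 and 18.8 CPM, and did not pass (log2 fold 1.39 ± 0.50, edgeR adjusted p = 0.115). The 12 endothelial markers summed to 285.3 and 177.9 CPM in members and to 124.3 and 193.1 CPM in matched barcodes. Of 11 tested, 0 passed (median log2 fold 0.37), beside 3.11% of all tested genes. This moved with the draw and the threshold: 1 passed upward with another seed (median 0.90) or at least 1000 UMIs (0.97). With members from 20% upward 2 passed (0.75), and with no matching 3 of 12 did (1.00). Over all tested genes 138 of 8751, 104 of 8316, 527 of 7660 and 266 of 18862 passed upward in these 4 settings. The low level was not confined to members or their partners. In barcodes under 8000 UMIs the bins below 25% held 129 to 207 CPM in MMPhigh 1 and 114 to 235 CPM in MMPhigh 2. Members of 25 to 40% held 444 and 221 CPM, and those of 40 to 60% held 112 and 89.0 CPM. In all barcodes of MMPlow 1 the same markers summed to 2453 CPM. Pecam1 was detected in 2.64% and 2.66% of members, in 1.54% and 2.74% of the comparison barcodes, and in 27.3% of the barcodes of MMPlow 1, whose median depth was 1257 non-mitochondrial UMIs against 469 and 596 in members.

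Among the other lineage lists, single genes passed. Lhx1, a gene of the early kidney and of some neurons, passed with a log2 fold of -1.18. It was the 1 of 4 tested epithelial or mesonephric markers that did, beside 1.63% of all tested genes downward. Its call was lost under 9 of 18 alternatives, another seed and no library block among them. S100a8, a neutrophil gene named here after its values were seen, passed upward with only 5 and 6 UMIs in members against 1 and 0, and with another seed 0 genes of its list passed upward. The mesenchymal, muscle progenitor, neural progenitor, neural crest or glia and germ cell lists gave 0 calls among 8, 5, 4, 3 and 3 tested markers. Over all tested genes 3.11% passed in either direction, a share at which a count of 0 does not set lists this short apart. Col1a1, the collagen gene of mesenchyme, stood at 70.5 and 57.5 CPM against 24.9 and 42.4 CPM and did not pass (edgeR adjusted p = 0.282).

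Per barcode, a larger share of members than of comparison barcodes held no recognised lineage at equal depth. Each barcode was thinned to 500 non-mitochondrial UMIs, which left 207 of 454 and 308 of 527 members. It was said to hold a lineage when UMIs of at least 2 different markers of its list remained. The cut left out more members of high mitochondrial share. Median non-mitochondrial UMIs were 799 and 1873 in members of 25 to 40%, 425 and 727 at 40 to 60%, and 345 and 356 from 60%. Of the members kept, 60.9% in MMPhigh 1 (exact 95% interval 53.9 to 67.6) and 49.7% in MMPhigh 2 (44.0 to 55.4) held none of the 13 lineages. Of the comparison barcodes, 38.3% (33.7 to 43.0) and 40.7% (35.3 to 46.2) held none. The intervals cover counting error within a library only, and no test was made over 2 libraries. Thinned to 200 UMIs, the values were 87.0% and 84.6% of members against 78.4% and 70.1%.

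By lineage, among the barcodes kept at 500 UMIs, the widest gap was that of macrophages in MMPhigh 1. Their list was held by 6.76% of members and 27.0% of comparison barcodes there, and by 8.44% and 14.4% in MMPhigh 2. The neuron list was held by 22.2% and 26.6% of members against 34.7% and 35.2%. The haematopoietic progenitor list was held by 8.70% of members and 3.83% of comparison barcodes in MMPhigh 1, and by 6.17% and 3.67% in MMPhigh 2. Among all other barcodes under 8000 UMIs it was held by 3.599% in MMPhigh 1 and by 7.95% in MMPhigh 2, above the members there. At 200 UMIs it was held by 1.57% of members and 1.32% of comparison barcodes in MMPhigh 1, and by 1.35% and 0.610% in MMPhigh 2. The number of different genes at 500 UMIs was slightly lower in members, at medians of 370 and 383 against 382 and 400. The part of free RNA in the suspension in these shares was not tested.

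Of the 12 genes in a fixed list of nucleus-retained long non-coding RNAs, 1 passed upward and 2 downward. This stands beside 3.11% of all tested genes in either direction, and the list's median log2 fold was -0.37. The place of each RNA in the cell was not checked, and Snhg11 is annotated as protein-coding. DESeq2 called 0, at least 1000 UMIs left 0 upward and 2 downward, and the median was 0.02 after matching on non-mitochondrial UMIs. Of all tested genes, 104 passed upward and 134 downward of 8316 with at least 1000 UMIs. Malat1, an abundant RNA of nuclear speckles, stood at 6007 and 9118 CPM in members against 8363 and 12034 CPM, lower in both libraries but not past the threshold (log2 fold -0.45 ± 0.39, edgeR adjusted p = 0.761). By mitochondrial share it stood at 8029 and 11019 CPM in members of 25 to 40% and at 2986 and 3977 CPM in members of at least 60%. Its mean number per barcode went from 9.38 and 24.0 UMIs to 1.12 and 1.68 UMIs between these bins. At least 1 Malat1 UMI was seen in 67.4% and 75.9% of the matched members and in 89.9% and 80.2% of their partners, at lower non-mitochondrial depth in the members.

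Kcnq1ot1, the imprinted antisense RNA of the Kcnq1 locus, stood at 474.4 and 741.6 CPM against 184.6 and 559.0 CPM and did not pass (log2 fold 0.84, edgeR adjusted p = 0.0887). Pvt1 passed upward (1.44), and Meg3 (-1.07) and Snhg11 (-1.83), both abundant in neurons, passed downward. Neat1 (0.36) and Xist (0.67) did not pass. Xist stood at 250.0 and 643.1 CPM in members against 257.4 and 260.7 CPM, so the libraries disagreed.

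No list of stress genes gave a call, beside 3.11% of all tested genes, so a count of 0 in lists of this length does not set them apart. Of the tested genes, 0 of 9 immediate early, 0 of 10 heat shock and chaperone, 0 of 7 unfolded protein and integrated stress response, 0 of 9 p53 and apoptosis, 0 of 12 mitochondrial stress and 0 of 13 antioxidant genes passed. Without adjustment, 1 p53 gene and 1 antioxidant gene had p under 0.05 and no gene of the other 4 lists did, and DESeq2 called 0 in all 6. Their fitted median log2 folds lay between -0.14 and 0.09, but the libraries differed. The immediate early median was -0.54 in MMPhigh 1 and 0.23 in MMPhigh 2, and the unfolded protein median -0.60 and 0.05. Immediate early genes summed to 732 and 930 CPM at shares of 15 to 25%, and to 221 and 286 CPM from 60%. Unfolded protein genes went from 1290 and 1771 to 442 and 670 CPM, while the other 4 lists were higher in the upper bin. With members from 20% upward 3 of 7 heat shock, 3 of 12 antioxidant and 2 of 6 p53 genes passed downward, beside 536 of 7660 over all tested genes. Hspa5, the chaperone induced by unfolded protein in the endoplasmic reticulum, stood at 426.3 and 894.9 CPM in members against 578.7 and 642.2 CPM (log2 fold 0.03 ± 0.30, edgeR adjusted p = 0.990). Jun, an immediate early gene, stood at 99.4 and 218.9 CPM against 149.1 and 142.9 CPM (0.08 ± 0.29). In both genes the libraries differed in direction.

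The other stress genes fixed for naming were sparse. Fos held 3 and 3 UMIs in members against 11 and 5, Atf3 held 1 and 1 against 3 and 5, Hspa1a held 2 and 5 against 2 and 3, and Ddit3 held 7 and 1 against 4 and 4. These 4 genes did not pass the filter on low counts and were not tested. Cdkn1a, the cell cycle inhibitor induced by p53, held 2 and 12 UMIs against 21 and 28 and did not pass (log2 fold -1.03 ± 0.51, edgeR adjusted p = 0.371).

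The fixed lists of nuclear genes for the respiratory chain, the mitochondrial ribosome and mitochondrial transcription gave no call, beside 3.11% of all tested genes, a share at which lists of this length do not stand apart. Taco1 and Lars2 are in none of them. Of the 27 nuclear complex I genes and the 35 genes of complexes II to V, 0 passed, with median log2 folds of -0.16 and -0.12. This depended on the threshold: with members from 20% upward, 6 of 27 and 9 of 35 passed downward (medians -0.60 and -0.50). Over all tested genes 536 of 7660 passed downward there. With members of 40% or more left out the medians were -0.40 and -0.35 and 0 passed, and with only those members they were 0.03 and 0.13. The complexes II to V list summed to 13495 and 13163 CPM in members against 16045 and 12526 CPM. Of the 76 mitochondrial ribosomal protein genes and the 12 genes of mitochondrial transcription and RNA handling, 0 passed either (medians -0.18 and 0.04). Tfam, which packages and transcribes mitochondrial DNA, stood at 64.1 and 52.0 CPM against 87.0 and 50.2 CPM (log2 fold -0.22 ± 0.37). Glycolysis (15 genes), histone (35) and interferon (3) lists gave 0 calls. Actb, named after its values were seen, stood at 4468 and 3752 CPM in members against 10474 and 5924 CPM in matched barcodes. It was lower in the members of both libraries, and DESeq2 called it lower (log2 fold -0.97, adjusted p = 0.0131), while edgeR did not (-0.95, adjusted p = 0.194).

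**Figure D5:**
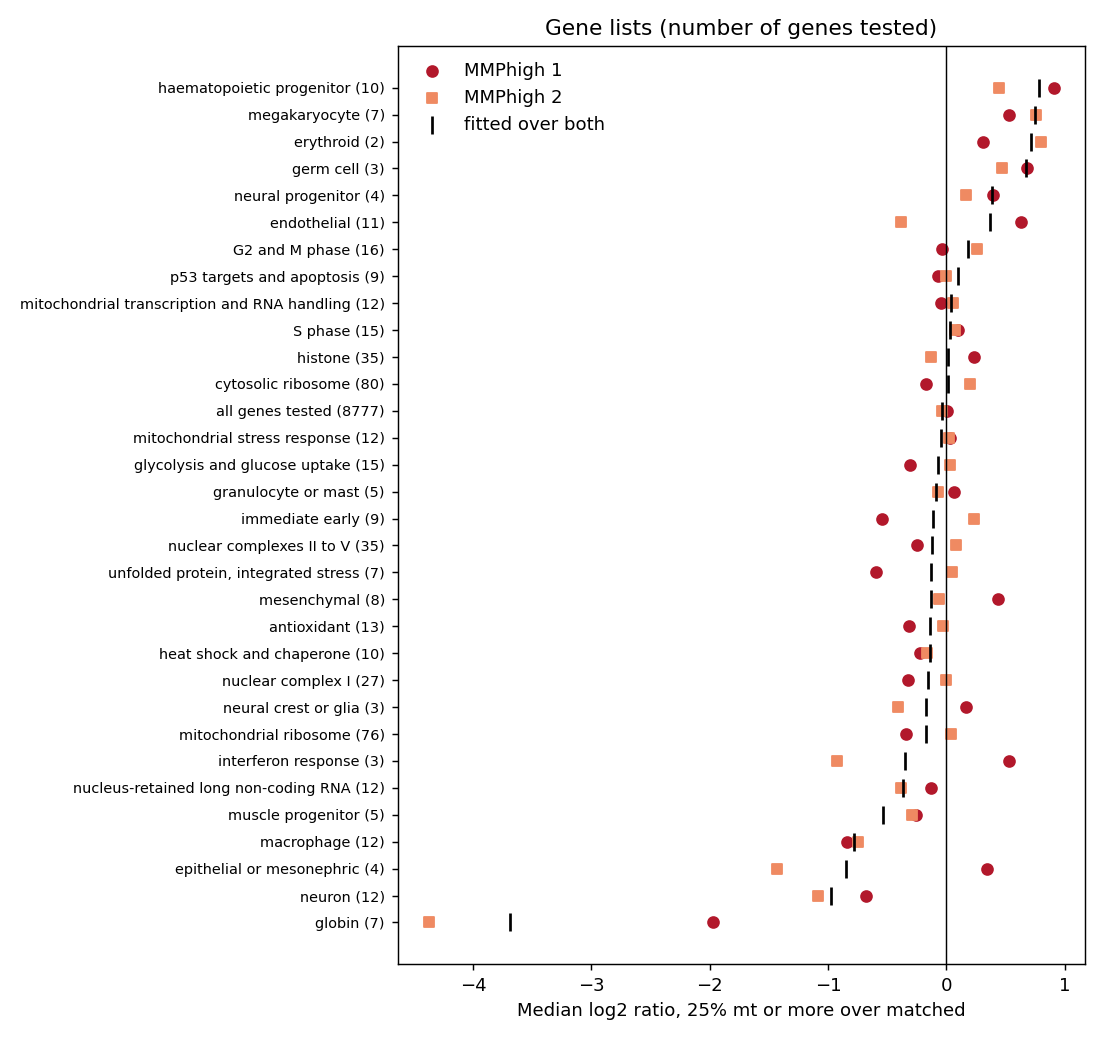
Median log2 ratio of members over matched barcodes (x axis) for the lists with tested genes, with the number of tested genes in parentheses. Points are the 2 MMPhigh libraries, computed with 10 CPM added, and the bar is the fitted value over both. The haematopoietic progenitor list lies at 0.78 and the neuron list at -0.98, and the fitted medians of the stress lists lie between -0.14 and 0.09.

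The 2 gates could be compared only through MMPlow 2, whose 14 barcodes above the threshold were the counterpart of the 981. Their mitochondrial share was lower, with a median of 27.1% and a maximum of 30.7%, and they were no shallower than the members of MMPhigh, with a median of 1600 UMIs. The same 10 genes of largest rise summed to 174 UMIs in these 14 barcodes and to 57 UMIs in 14 matched ones, or 9697 against 2458 CPM. Taco1 held 60 of them against 11, Gm26917 31 against 4 and Gm47283 31 against 9. Cmss1 held 24 against 18, Camk1d 18 against 9 and Lars2 8 against 5. The remaining genes were nearly absent, with 1 against 0 for Gm15261, 1 against 1 for Il31ra, and 0 in both classes for Gm15564 and P2ry14. Gm42418 stood at 27419 against 20695 CPM. The endothelial markers summed to 1839 CPM against 2458 CPM.

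Formal tests within MMPlow and of the difference between the gates gave 0 of 8777 calls (0%) with edgeR, with 272 and 304 genes at an unadjusted p under 0.05. DESeq2 gave 0 calls in both, with 60 and 57 genes at an unadjusted p under 0.05. The single MMPlow pair has no replicate and was assumed to vary like the MMPhigh pairs. No difference is therefore shown to be particular to MMPhigh at this threshold. With members from 20% upward, where MMPlow 1 added a pair of 8 members, 18 of 7660 genes passed for the difference between the gates.

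Gene length moved with the fold in one library only. Over quartiles of the genomic span the median log2 ratio in MMPhigh 1 went from -0.21 in the shortest genes to 0.29 in the longest, while in MMPhigh 2 it stayed between -0.07 and -0.03. Called genes in both directions were long, with a median span of 105382 bases in the higher genes and 202776 bases in the lower ones, against 30722 bases over all tested genes. The part of length in the gene results was not tested. Whether reads in introns were counted is not given in the sources used here, and counts of long genes such as Cmss1 and Camk1d may or may not hold them.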

How the data were processed

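The deposited matrices hold UMI counts per gene and barcode, whole numbers without normalization. Per the file headers they came from Cell Ranger 7.0.1, while the submitters' processing notes name Cell Ranger 2.1.1 and the build mm10. The kit was 10x 3' v3, per the labels' protocols. Each file lists 32285 genes, of which 32158 matched GENCODE vM21 (GRCm38), used for positions and lengths.

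From these counts, members (at least 500 UMIs, at least 25% from mt- genes) and barcodes under 25% were drawn in equal numbers per bin of 0.25 log2 total UMIs and library (seeded) and summed without mt- genes. MMPlow 1 had no member, so 6 sums entered where 8 had been planned. They were tested with edgeR 4.0.16 (TMM, filterByExpr, robust quasi-likelihood test, two-sided, Benjamini-Hochberg over all tested genes) with the library as block, under R 4.3.3, and with DESeq2 1.42.0 as an alternative. Thresholds, matching, thinning to 200 UMIs, filters, scaling and left-out libraries were varied. The scripts were tested on simulated data. Log2 ratios of single libraries had 10 CPM added. No doublets were called.

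The block pairs the 2 sums of a library, which come from the same suspension. Replicate numbers across gates pair nothing that the labels state.

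Named genes were the 10 higher and 10 lower of largest fold with the same sign in both libraries and at least 100 UMIs, up to 2 called genes a direction in each list with at least 20 UMIs, and a fixed set. The members and lists were chosen with earlier results of these data known.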

Additional observations from a re-analysis of the deposited data

How the results depend on the processing

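The count of 273 genes between members and matched barcodes in MMPhigh became 1063 with a mitochondrial threshold of 20%, 66 with 40%, 534 with comparison barcodes under 10%, 121 after matching on non-mitochondrial UMIs, 851 with no matching, 27 after thinning to 200 UMIs and 21 with DESeq2. It became 132 with members of 40% or more left out, a setting chosen after seeing the data. It lay between 218 and 290 under the other 9 settings. The cause of these shifts was not tested. In MMPlow, where 0 genes passed, 8 passed with 20%, 5 with comparison barcodes under 10%, 27 with no matching, 2 each with at least 1000 UMIs, another seed or shared barcodes left out, and 1 each without globin-rich barcodes, without TMM or with a filter of 10 CPM. For the difference between the gates, 18 passed with 20%, 7 with under 10%, 27 with no matching, 2 with another seed and 3 with shared barcodes left out.

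Without the replicate block that pairs the sums of a library, 130 genes passed, all among the 273. Taking the gates' replicate numbers as a replicate block gives 7.74 points for the share by arithmetic, which says nothing about stability. Leaving out 1 library gave 3.23 to 12.3 points. Leaving out an MMPhigh library left no residual degree of freedom for genes, so only the other library's ratios were used; leaving out MMPlow 2 gave 272 calls. Without globin-rich barcodes, a setting chosen after seeing the data, Hbb-y went to 0.012 (adjusted p = 0.999) and Hba-x to 0.22 (adjusted p = 0.941). Of the 36 called named genes, 28 lost the call under at least 1 setting. The MMPlow fits at 40%, and those without MMPlow 2, could not be run, since no pair was left.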
